A study of Mus musculus with 8 samples.

Results

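miR-674 is a microRNA (miRNA) of mouse and rat whose hairpin gives a mature strand from each arm, miR-674-5p and miR-674-3p (mmu-miR-674-5p and mmu-miR-674-3p in the files). These are 2 of the 1881 mouse miRNAs on the array and take 7 of its 4415 probes. They were taken by name, and chosen from the measured difference between the groups on these same arrays, where both were higher after ureteral obstruction. That difference is therefore given as a description. A model was fitted over all miRNAs, and its calls for these arms follow from the choice and support nothing.

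The samples were whole kidneys of male C57BL/6 mice aged 8 weeks, taken 7 days after surgery. In 4 samples the ureter of 1 side had been obstructed (UUO), and 4 samples had sham surgery (Sham). Sham samples are numbered 1, 2, 3 and 8 and UUO samples 1, 2, 3 and 4. No label says that each was a separate mouse, so the spread given below is that between samples. Each was hybridized to 1 Cy3-labelled Agilent miRNA array, and all 8 arrays were on 1 slide and in 1 scan. The Sham arrays were in row 1 of the slide and the UUO arrays in row 2, by their file headers, so row and surgery cannot be told apart.

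A miRNA hairpin is cut out of a longer transcript in the nucleus and its loop is then removed in the cytoplasm. This leaves a short duplex of both arms, of which usually one strand enters an Argonaute protein and guides it to target mRNAs through the seed, bases 2 to 8. Both arms come from the same transcript but their levels can differ through the choice of strand and its stability. Obstruction of the ureter dilates the tubules and leads to loss of epithelium, influx of leukocytes and build-up of fibroblasts and matrix, so a whole-kidney level reflects a changing mixture of cells. In such tissue a change in the share of a cell type and a change in RNA per cell cannot be told apart.

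The mature strands are shown first because they set what each probe can read. RefSeq (GRCm38.p6) places the hairpin at chr2:117185127-117185226 on the plus strand, the 5p arm at chr2:117185151-117185172 and the 3p arm at chr2:117185186-117185207. Capitals mark the seed in the mature strands and the arms in the hairpin.
miR-674-5p: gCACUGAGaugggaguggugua
miR-674-3p: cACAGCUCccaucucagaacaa
Mir674 hairpin: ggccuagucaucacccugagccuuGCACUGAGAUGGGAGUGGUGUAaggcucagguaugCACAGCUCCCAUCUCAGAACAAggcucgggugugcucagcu

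In the fold of lowest energy (RNAfold), 17 of the 22 bases of the 5p arm paired with bases of the 3p arm, and 13 bases lay between the arms. The table of RefSeq genes lists no gene that overlaps Mir674. Its nearest protein-coding neighbour was Spred1, which encodes an inhibitor of Ras and ERK signalling, lies on the same strand and ends 2848 bases before the hairpin. The next on the other side was Fam98b, 64487 bases away.

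The seeds of the 2 arms differ. Among 1738 mature mouse entries in RefSeq, none shared the seed of miR-674-3p. The seed of miR-674-5p was shared with miR-1947-3p and miR-3473d, shown here with the seed in capitals because they would be grouped with it by seed.
miR-1947-3p: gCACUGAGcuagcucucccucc
miR-3473d: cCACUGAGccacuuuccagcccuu
Neither of these was well above background on any of the 8 arrays, so neither was tested.

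All probes were complementary to the 3′ end of a mature strand. The longest probe of each arm was also its brightest and represents that arm below. Capitals mark the bases that this probe covers.
miR-674-5p, 14-base probe: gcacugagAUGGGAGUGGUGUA
miR-674-3p, 19-base probe: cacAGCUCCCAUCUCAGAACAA
The 5p probe covers bases 9 to 22, and so none of the seed, and the 3p probe bases 4 to 22. The deposited files list these probes on mm9 at chr2:117010896-117010908 and chr2:117010926-117010943, intervals 1 base shorter than the probes. No other mature mouse entry held an exact match to any of the 7 probes. The nearest probes of other miRNAs differed from the 3p probe by 6 edits (miR-6969-3p and miR-706) and from the 5p probe by 4 edits (miR-1934-3p, miR-465a-5p and miR-705). Of these, 1 of the 2 nearest to the 3p probe and 2 of the 3 nearest to the 5p probe were well above background on at least 1 array, and miR-1934-3p was on all 8. Whether they add to the signal of the miR-674 probes was not tested.

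Both arms were brighter on every UUO array than on any Sham array. miR-674-3p was 2.07-fold higher in UUO (log2 change 1.05 ± 0.05 (SE), n = 4 per group). miR-674-5p was well above background on 4 of 4 UUO arrays and on 0 of 4 Sham arrays, and was at least 2.15-fold higher. Well above background means here that over 50% of a probe's spots carried the scanner software's mark of that name. For comparison between arrays, signals were expressed relative to the array's 75th percentile, taken across the 623 probes that were well above background on every array.

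The 19-base probe of miR-674-3p had processed intensities, the scanner's spot brightness less background averaged over spots, of 26.8, 27.7, 27.9 and 27.8 on Sham 1, 2, 3 and 8. On UUO 1, 2, 3 and 4 they were 73.2, 59.8, 61.2 and 67.4. The Sham values lay close together, UUO 1 was the highest, and the lowest UUO value was 2.15 times the highest Sham value. All 39 Sham spots and all 32 UUO spots used were well above background.

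After scaling, the log2 signals of miR-674-3p were −3.94, −3.83, −3.86 and −3.89 on Sham 1, 2, 3 and 8. On UUO 1, 2, 3 and 4 they were −2.72, −2.86, −2.91 and −2.83. The groups did not overlap. Their SDs were 0.05 for Sham and 0.08 for UUO. Pairing the arrays in each of the 4 columns of the slide gave differences, UUO minus Sham, of 1.23, 0.97, 0.94 and 1.06.

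The shorter 3p probes gave changes of the same direction. The 18-base probe was well above background on all 8 arrays, with intensities from 17.4 to 20.6 in Sham and from 43.8 to just under 50 in UUO, and was 2.13-fold higher in UUO. The 17-base probe had intensities from 6.27 to 7.72 in Sham, with 0 of 39 spots well above background. In UUO it had 17.4 to 19.2, with 37 of 38 spots well above background, and was at least 1.24-fold higher. Within each group the intensity was higher the longer the probe.

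The 14-base probe of miR-674-5p had intensities of 10.6, 10.4, 10.4 and 10.6 on Sham 1, 2, 3 and 8, and 33.0, 30.1, 29.1 and 34.2 on UUO 1, 2, 3 and 4. The lowest UUO value was 2.74 times the highest Sham value. In Sham 3 of 28 spots were well above background, while all 28 passed the software's weaker test of being above background. In UUO all 28 spots were well above it.

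The Sham level of miR-674-5p is thus treated as a limit, since the probe did not meet the rule used here for well above background. The Sham array means, each over 7 spots, had an SD of 0.126, and single spots within an array an SD of 1.37 to 3.52. The bound of 2.15-fold sets the UUO mean, −3.88 ± 0.07 (SD, log2 scaled signal), against the lowest signal well above background on each Sham array, on average −4.98. The measured Sham mean of −5.27 was below that level. It is a bound on the ratio of means only.

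The 3 shorter probes of miR-674-5p were not well above background on any array. The 13-base probe had intensities from 0.847 to 3.48 in Sham and from 5.90 to 10.4 in UUO. The 12-base probe had 0.871 to 2.38 in Sham and 5.78 to 7.84 in UUO. The groups were apart for both, but no fold is given below background. The 11-base probe was around 0 on all 8 arrays, from −2.78 to 0.547 in Sham and from −2.34 to 0.487 in UUO, and its groups overlapped.

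**Figure D1:**
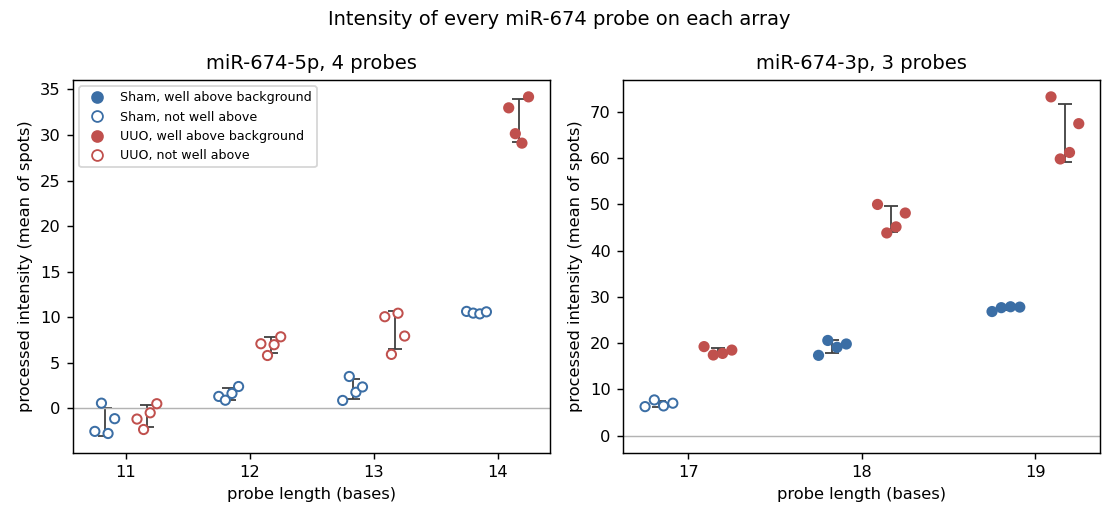
Processed intensity (linear, mean of the spots of a probe) of the 4 probes of miR-674-5p and the 3 probes of miR-674-3p on each array, by probe length in bases, Sham in blue and UUO in red; bars span the mean ± SD of 4 arrays, filled points are well above background and open points are not. The 4 UUO values lie above the 4 Sham values for every probe except the 11-base probe, and the 14-base probe of miR-674-5p is filled in UUO only.

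The scanner software also sums each miRNA over the probes it calls detected, by a criterion of its own. By that criterion both arms were detected on all 8 arrays. The total intensity of miR-674-3p was 8.37, 9.22, 8.84 and 9.11 on Sham 1, 2, 3 and 8 and 27.1, 23.4, 23.8 and 25.9 on UUO 1, 2, 3 and 4. That of miR-674-5p was 1.41, 1.40, 1.36 and 1.42 in Sham and 5.73, 4.08, 5.30 and 4.62 in UUO. The groups were apart for both arms, and UUO 1 was again the highest. After scaling, the log2 change was 0.95 ± 0.07 (SE) for the 3p arm and 1.26 ± 0.10 (SE) for the 5p arm. By this measure the 5p arm changed more, by 0.32, but the probes that enter a total can differ between arrays. The totals of miR-674-5p were highest on UUO 1 and 3, where its 13-base probe was brightest (10.0 and 10.4). Its 14-base probe was brightest on UUO 4. How far the choice of probes summed enters these changes was not tested. The deposited ratio table, which holds the same totals with 1 factor per array, gave log2 changes of 0.99 for the 3p arm and 1.30 for the 5p arm.

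By single probes the order of the arms was not settled. The difference within an array, 5p minus 3p, does not depend on a constant divided out of the array as long as both are measured. It was −1.15, −0.99, −1.07 and −0.98 (log2) on UUO 1, 2, 3 and 4. In Sham the 5p arm was held at the floor, a log2 scaled signal of −4.89, and the differences there, from −1.06 to −0.94, are upper limits. As measured, the 5p signal in Sham was −5.29 to −5.24, below the floor and not well above background. With those values the difference was lower on every Sham array than on any UUO array. The fitted difference in change between the arms was −0.04 with this floor, which is higher than the −4.98 of the bound. It is therefore a lower limit. The within-array difference had a pooled SD of 0.07 over arrays, which in Sham comes from the 3p arm only.

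All 408 miRNAs well above background on at least 4 of 8 arrays were fitted with limma, and called at a Benjamini-Hochberg adjusted p under 0.05. Both arms were among the 162 called higher, 39.7% of all tested, and among those whose 4 UUO values all exceeded the 4 Sham values, 36.5% of all tested. Both were also among the 12.5% called higher and at least 2-fold higher as fitted. miR-674-5p was 1 of 20 (4.9%) that were well above background on 4 UUO and 0 Sham arrays. The fitted log2 changes of 1.05 and 1.01 compare with a median of 0.06 over all tested miRNAs. With 113 called lower (27.7%), 58.9% of the calls were higher. This share ran from 33.6% with the total intensity per miRNA, where 499 miRNAs were tested, to 80.1% with scaling to the dmr control features. The median log2 change ran from −0.24 to 0.33.

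Relative to the median of each scaling, the change of miR-674-3p stood at 0.98 to 1.00 for the text's scaling, the percentile over all probes, no scaling and the dmr features, at 0.85 with quantile normalization and at 1.19 with either the total intensity or the ratio table. For miR-674-5p, with the floor in Sham, it stood at 0.95 with the text's scaling, at 0.79 with the dmr features and at 1.5 with either the total intensity or the ratio table, to which the floor was not applied. With normexp correction, which adds 50 to every intensity, and then quantile normalization, these values fell to 0.35 (3p arm) and 0.33 (5p arm). The fitted changes there were 1.26-fold for the 3p arm (0.34 ± 0.03 (SE)) and 1.24-fold for the 5p arm (0.31 ± 0.02 (SE)). The fitted change of miR-674-5p was 0.25 ± 0.03 (SE) as the mean of its 4 probes, 3 of which were at the floor, and 0.03 ± 0.02 (SE), no longer called, with the floor doubled. The doubled floor lay within the range of the UUO signals of this arm, so that setting removes its change by construction.

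**Figure D2:**
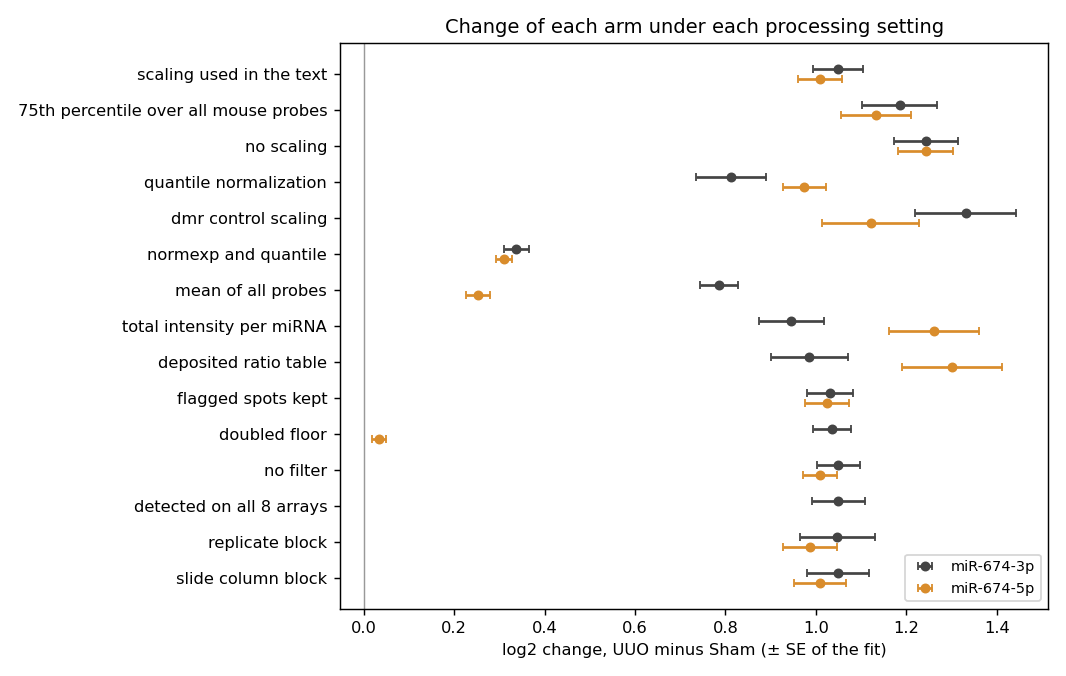
Fitted log2 change, UUO minus Sham, of miR-674-3p (dark) and miR-674-5p (orange) under each processing setting, with bars of ± 1 SE of the limma fit (n = 4 per group, 3 for the replicate block). All values are above 0, from 0.34 to 1.33 for the 3p arm and from 0.03 to 1.30 for the 5p arm, and miR-674-5p was not tested among miRNAs well above background on all 8 arrays.

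The 2 arms were also set beside those of other hairpins. Both arms were tested for 47 other hairpins, and in 14 of these (29.8%) both arms were called higher. In 13 both were called lower, in 3 the arms were called in opposite directions, in 13 only 1 arm was called and in 4 neither was. Both arms were called and at least 2-fold higher in 4 of the 47. The median absolute difference between the arms' log2 changes was 0.15, and 41 of the 47 had a difference at least as large as that of miR-674 as fitted. That small difference rests on the floor of the 5p arm, and 5 of the 47 also had an arm that was well above background on UUO arrays only.

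**Figure D3:**
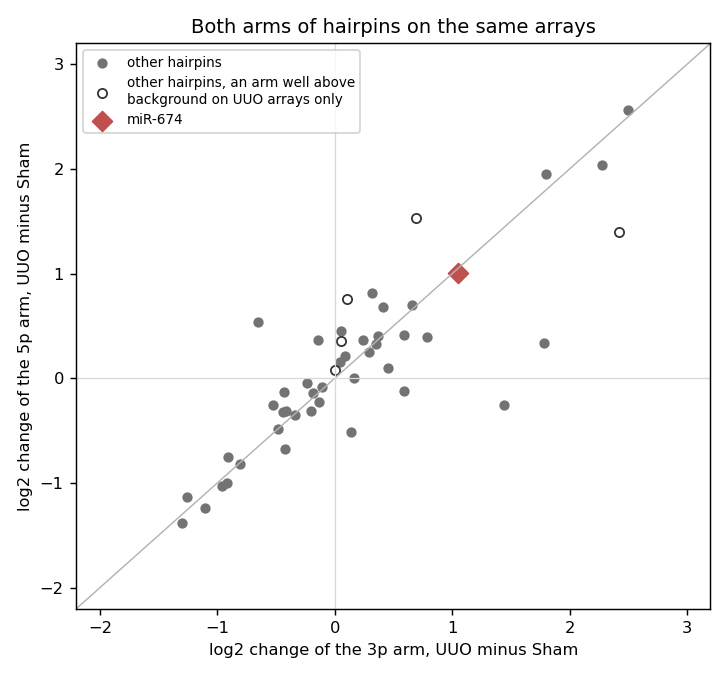
Fitted log2 change of the 5p arm against that of the 3p arm, UUO minus Sham, for the 48 hairpins with both arms tested; the line marks equal change and open points are other hairpins with an arm well above background on 4 UUO and 0 Sham arrays. miR-674 (diamond, 1.05 and 1.01) lies close to the line, with its 5p value set by the floor in Sham.

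The profiles of the arms over the 8 arrays were compared with those of the other tested miRNAs. Likeness was taken as the root mean square difference of log2 signals, each miRNA centred on its own mean, for which the median over all tested miRNAs was 0.53 against miR-674-3p. Among other miRNAs the nearest to miR-674-3p were miR-350-3p at 0.074, miR-224-5p at 0.088 and let-7i-5p, a member of the let-7 family, at 0.097. The distance between the arms depended on the floor: it was 0.061 with the Sham values of miR-674-5p at the floor, and 0.18, farther than those 3 miRNAs, with the values as measured. With its Sham values at the floor, miR-674-5p had miR-224-5p at 0.058, miR-350-3p at 0.061 and miR-15b-5p, of a family that targets cell-cycle mRNAs, at 0.085, and these distances rest on the floor too. The measure is dominated by the step between the groups: these neighbours had log2 changes from 0.92 to 1.09. miR-350-3p was well above background on all 8 arrays, with signals from −2.35 to −2.21 in Sham and from −1.33 to −1.23 in UUO. miR-224-5p was well above background on 1 Sham array and 4 UUO arrays, and its Sham values, like those of miR-674-5p, were mostly at the floor.

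**Figure D4:**
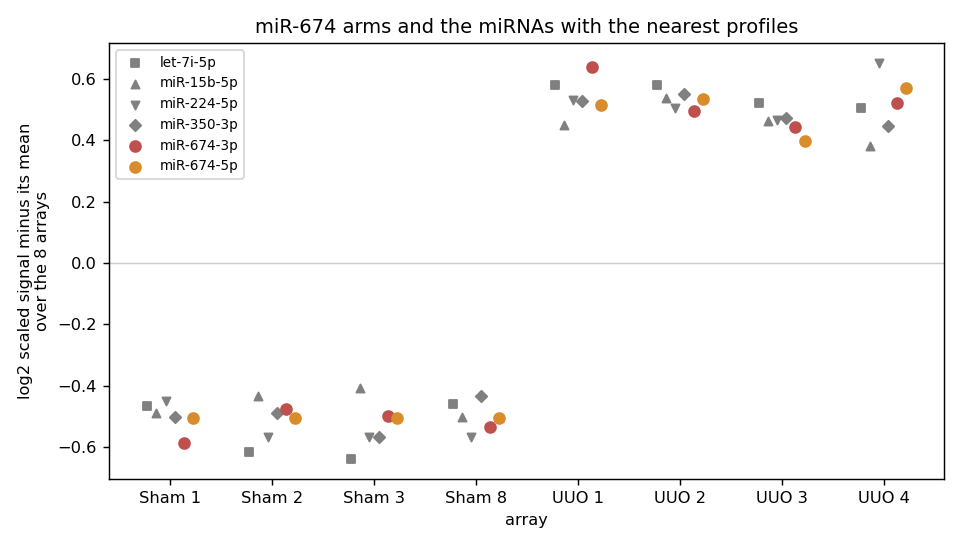
Log2 scaled signal on each array, minus the mean over the 8 arrays, of miR-674-3p, miR-674-5p and the 4 miRNAs with the nearest profiles (grey). All 6 lie below 0 on the Sham arrays and above 0 on the UUO arrays, and miR-674-3p is highest on UUO 1 while miR-674-5p is highest on UUO 4.

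Markers of several cell types also differed between the groups, some higher in UUO and some lower. All 7 leukocyte miRNAs were called higher, among them miR-223-3p of myeloid cells (2.30 ± 0.07 (SE), log2) and miR-142a-3p of blood cells in general (2.28 ± 0.07 (SE)). Their summed signal, in units of the array's 75th percentile, was 2.17 to 2.63 in Sham and 8.16 to 9.23 in UUO. All 5 fibroblast miRNAs were called higher, with miR-214-3p at 2.42 ± 0.06 (SE) and miR-199a-5p at 1.95 ± 0.07 (SE), and their sum went from 3.73 to 4.19 in Sham to 13.2 to 15.8 in UUO. Over 8 scalings 6 or 7 leukocyte and 5 fibroblast miRNAs were called higher. Of 9 miRNAs of kidney epithelium, 7 were called lower, with miR-30e-5p at −1.24 ± 0.07 (SE) and miR-192-5p at −1.14 ± 0.11 (SE), and their sum was 65.1 to 69.0 in Sham and 36.6 to 43.6 in UUO. From 4 to 8 of these were called lower and from 0 to 2 higher over the 8 scalings. All 9 were well above background on all 8 arrays, so the markers of kidney epithelium were present in every sample.

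The change of miR-674-3p, 1.05, lay below the medians of the leukocyte list (2.03) and the fibroblast list (1.80). It was inside the range of the fitted leukocyte changes, 0.59 to 2.49, and below that of the fitted fibroblast changes, 1.40 to 2.42. For miR-674-5p only a bound is known, and it was not ranked against these lists. Of 3 red blood cell miRNAs, 2 were called lower, and 2 or 3 were over the 8 scalings. Their sum was 3.71 to 5.46 in Sham and 2.11 to 3.84 in UUO. Of 2 endothelial miRNAs, 1 was called lower, and over the 8 scalings 0 to 2 were called lower and 0 or 1 higher. No striated muscle or neural miRNA was called with this scaling. The liver miRNA miR-122-5p was well above background on 4 Sham arrays and 0 UUO arrays, and the neural miR-124-3p on no array. The part of any of these cell types in the higher level of miR-674 was not tested.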

How the data were processed

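Per the file headers and the submitters' processing notes, the authors used Agilent Feature Extraction 10.7.3.1, and the deposited spot intensities are less a fitted background surface and not normalized between arrays. The deposited total intensity per miRNA sums the probes the software calls detected. The deposited ratio table equalled that total times 1 factor per array, divided by a value per miRNA (largest deviation 9.8e-06, log2, over 403 miRNAs); no source used here states how that factor was set. The median ratio of an array was 1.11, 1.26, 1.28 or 1.11 among Sham 1, 2, 3 and 8, and 0.809, 0.903, 0.867 or 0.766 among UUO 1 to 4.

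Control spots were left out, as were outlier spots, 2.64 to 2.95% of each array, and no spot was saturated. Between 720 and 754 probes were well above background on Sham arrays and 740 to 800 on UUO arrays, and the scaling percentile was an intensity of 394 to 413 and 435 to 482. Scaled signals were raised to the floor, the highest over arrays of the lowest signal well above background, and log2 was taken. A miRNA was represented by its probe of highest mean over all arrays. The fit used limma 3.58.1 (R 4.3.3), whose only term was the group, and was tested on simulated data. The number of arrays limits the precision. Sequences came from RefSeq tables (GRCm38.p6), in which both arms matched by name; the hairpin was folded with RNAfold 2.7.2.

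The members, the marker lists and the settings were chosen with earlier results of these data known. The miRNAs named were the members, the 3 nearest profiles of each arm, entries sharing a seed or nearest in probe sequence, and up to 2 called members of a marker list; the liver and neural miRNAs were named outside that rule. Numbers 1, 2 and 3 occur in both groups. The correlation of same-numbered arrays' deviations was −0.00081, 0.12 and −0.30, against −0.45 to 0.38 for differently numbered arrays. This gave no sign of pairing by number, but so few arrays cannot exclude it.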

Additional observations from a re-analysis of the deposited data

How the results depend on the processing

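The log2 change of miR-674-3p was above 0 in all 22 alternatives, from 0.34 to 1.33, and that of miR-674-5p in all 21, from 0.033 with the doubled floor, where it was no longer called, to 1.30. Since the arms were chosen on this difference, its direction across settings is no independent support. Leaving out each array in turn, the log2 change ran from 1.01 to 1.08 for miR-674-3p and from 0.99 to 1.04 for miR-674-5p, and the difference between the arms from −0.06 to −0.01. Leaving out a Sham array cannot move the change of miR-674-5p, since all its Sham values were at the floor. With the replicate block over the 3 shared numbers the changes were 1.05 and 0.99, and both calls were as without it; 142 miRNAs were called higher and 84 lower on those 6 arrays, against 146 and 98 on the same arrays without it. A block for the column of the slide, added after the data were seen, cannot move the changes, since each column holds 1 array of each group; the SE was 0.07 against 0.05 for miR-674-3p and 0.06 against 0.05 for miR-674-5p.

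The difference between the arms, −0.04 with the scaling used, was 0.16 with quantile normalization, −0.21 with the dmr scaling, −0.53 with the mean of all probes, 0.32 with either the total intensity or the ratio table, and −1.0 with the doubled floor. The negative values were all made with the floor, which raises the Sham signal of the 5p arm and so makes its change smaller. They therefore cannot show the sign. The totals behind the 0.32 can sum different probes on different arrays. Size and sign are not fixed by these data, since the Sham signal of the 5p arm was not well above background. Of 408 tested miRNAs, 113 were called lower with the scaling used and 51 with the dmr scaling. By totals and ratios per miRNA, 215 and 207 were called lower, of 499 tested by the software's own detection criterion.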
